A study of Homo sapiens with 10 samples.

Results

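RNA-seq of QGP-1 cells, a human pancreatic neuroendocrine tumor line, was examined for 36 genes of the machinery that acidifies the lysosome and senses amino acids on its surface. The 36 genes were matched by symbol among the 35606 genes listed in each of 2 tables, and all 36 had 1 match and a mean of at least 1 CPM (the normalized read count, scaled to library size) in both. They comprise 17 genes of the vacuolar proton pump (V-ATPase), of which 8 encode V1 subunits, 7 encode V0 subunits and 2 encode accessory proteins, and 19 sensing genes, of which 5 belong to Ragulator, 3 are Rag GTPases, 3 form GATOR1, 2 belong to KICSTOR, 5 form GATOR2 and 1 is SLC38A9. The 10 samples fall into 5 groups of 2. In the knockdown table, cells carried CRISPR interference (CRISPRi: a dCas9-KRAB repressor expressed from a lentiviral vector with the guide) with either the non-targeting guide sgNC or the guide sgPIKFYVE_1, so that the knockdown rests on 1 guide. In the drug table, cells received the solvent DMSO, Apilimod, an inhibitor of the lipid kinase PIKfyve, at 1 µM, or Torin1, an inhibitor of the mTOR kinase, at 100 nM. The labels give 24 h for both drugs, while figure legends of the study give a shorter time for this RNA-seq, so the exposure is uncertain.

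The V-ATPase pumps protons into the lysosome by rotary catalysis: the cytosolic V1 sector hydrolyzes ATP and the membrane-embedded V0 sector carries the protons. On the same membrane, Ragulator anchors heterodimers of Rag GTPases, which recruit mTORC1 when amino acids are abundant. GATOR1 is the GTPase-activating complex that switches RagA and RagB off, KICSTOR tethers it to the lysosome, GATOR2 opposes it, and SLC38A9 is a lysosomal amino acid transporter that signals arginine to the Rags. Many lysosomal genes are known targets of the MiT/TFE transcription factors, which bind E-box sequences in promoters.

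Promoters from RefSeq (assembly GRCh38.p14, 250 bases before to 50 bases after each annotated start) were searched for CACGTG, the E-box. They were also searched for TCACGTGA, the palindromic extension that lies in the lysosomal CLEAR element and contains CACGTG. Both motifs are palindromes, so a match counts for both strands. For 29 of the 36 genes a promoter was matched, in 40 windows. CACGTG was present in 10 of the 40 windows (25%), belonging to 9 genes, against 7.26% of all 35116 promoters. TCACGTGA was present in 3 of the 40 windows (7.5%), those of ATP6V0D1, ATP6V1G1 and RRAGB, against 0.98% of all promoters. The other genes with CACGTG were RRAGC, LAMTOR1, LAMTOR4, ATP6V0B, ATP6V0E2 and NPRL3. A match is a description of these letters and was not tested as a binding site. A link between the motif and a change in level was not tested either. Genes called higher after PIKFYVE knockdown without CACGTG in a matched promoter were ATP6V1D, ATP6V1E1, ATP6V1F, ATP6V0C, ATP6AP1, LAMTOR3, LAMTOR5, MIOS and SEH1L. LAMTOR4, NPRL3 and RRAGB carried it and were not called there. ATP6V0E1, ATP6V1A, ATP6V1B2, ATP6V1C1, ATP6V1H, RRAGA and WDR24 were not matched to a promoter. Stretches upstream of the RefSeq start are shown for 5 of the genes that had CACGTG and rose after PIKFYVE knockdown, and then for RRAGB. ATP6V0B, with CACGTG at -57 and -39, also rose there and is not shown. RRAGB carries the same motif and did not pass the test in any comparison with a control. The stretches are written 5′ to 3′ on the strand of the gene, with CACGTG in capitals.
ATP6V0D1: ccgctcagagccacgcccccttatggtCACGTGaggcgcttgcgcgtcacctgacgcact
ATP6V1G1: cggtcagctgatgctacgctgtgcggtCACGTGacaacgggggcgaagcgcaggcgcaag
RRAGC: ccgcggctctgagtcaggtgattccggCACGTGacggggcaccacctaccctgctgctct
LAMTOR1: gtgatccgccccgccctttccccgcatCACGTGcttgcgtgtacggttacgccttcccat
ATP6V0E2: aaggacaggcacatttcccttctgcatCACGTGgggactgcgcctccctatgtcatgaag
RRAGB: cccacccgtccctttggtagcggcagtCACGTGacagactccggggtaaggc

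These stretches lie at chr16:67481184-67481243 on the minus strand for ATP6V0D1, chr9:114587684-114587743 on the plus strand for ATP6V1G1, chr1:38859852-38859911 on the minus strand for RRAGC, chr11:72103430-72103489 on the minus strand for LAMTOR1, chr7:149872869-149872928 on the plus strand for ATP6V0E2 and chrX:55717697-55717748 on the plus strand for RRAGB. Relative to the RefSeq start, the motif began at -59 in ATP6V0D1, at -58 in ATP6V1G1, at -112 in RRAGC, at -165 in LAMTOR1 and at -72 or -68 in ATP6V0E2, for 2 of its 3 annotated starts; the window of the other start held no CACGTG. RRAGB had CACGTG at -115, -25 and 7, and the stretch shown holds the site at -25, the only one of them within TCACGTGA. For ATP6V0D1 and RRAGB, GENCODE release 29 places the first base of the gene inside the stretch shown.

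The libraries carried the defining markers of the labelled cell type: all 8 neuroendocrine markers (among them CHGA, SYP and INSM1) and all 5 epithelial markers reached 1 CPM, with summed levels of 6236 to 9530 CPM and 2269 to 3271 CPM per sample. Leukocyte, fibroblast and endothelial markers summed to 0.747 to 10.4 CPM, with CD3E, MS4A1, COL3A1 and LUM at 0 in every sample. Of these markers, 1 of 5 fibroblast and 1 of 4 endothelial ones averaged at least 1 CPM. With sgNC, the fibroblast marker COL1A1 measured 9.46 and 9.60 CPM and the endothelial marker PECAM1 2.88 and 3.75 CPM. The spacing of low values gave an estimated depth of 9.12 to 13.2 M reads per sample, so that 3 reads correspond to 0.227 to 0.329 CPM, and no value of the 36 genes was below 3.24 CPM (KPTN). The targeted gene, PIKFYVE, measured 100.7 and 97.5 CPM with sgNC and 10.9 and 12.5 CPM with sgPIKFYVE_1 (log2 fold change -2.98, SE 0.0979, adjusted p = 1.22e-14, limma's moderated test, Benjamini-Hochberg adjusted over the whole table, as in all comparisons here). Log2 fold changes are differences of mean log2(CPM + 1) between groups of 2. As in any bulk measurement, a change in RNA per cell and a change in the mix of cells cannot be told apart.

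In control cells the proton pump genes were measured at higher levels per exon length than most of the sensing genes. With DMSO, the median over the 17 V-ATPase genes was 40.3 CPM per kb of exon, and the median over the 19 sensing genes was 10.8 CPM per kb. The sgNC cells gave medians of 42.2 and 10.3 CPM per kb in their own table. ATP6V1F, a small V1 stalk subunit, stood highest with DMSO, at 118 CPM per kb, and LAMTOR2, a Ragulator subunit, stood highest with sgNC, at 119.8 CPM per kb. DEPDC5, a GATOR1 subunit, was the lowest in both tables, at 1.83 CPM per kb with sgNC and 2.09 CPM per kb with DMSO. Of the 35 pairs of neighbors in the order of levels, 14 had replicate values that overlapped with DMSO and 17 with sgNC.

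**Figure D1:**
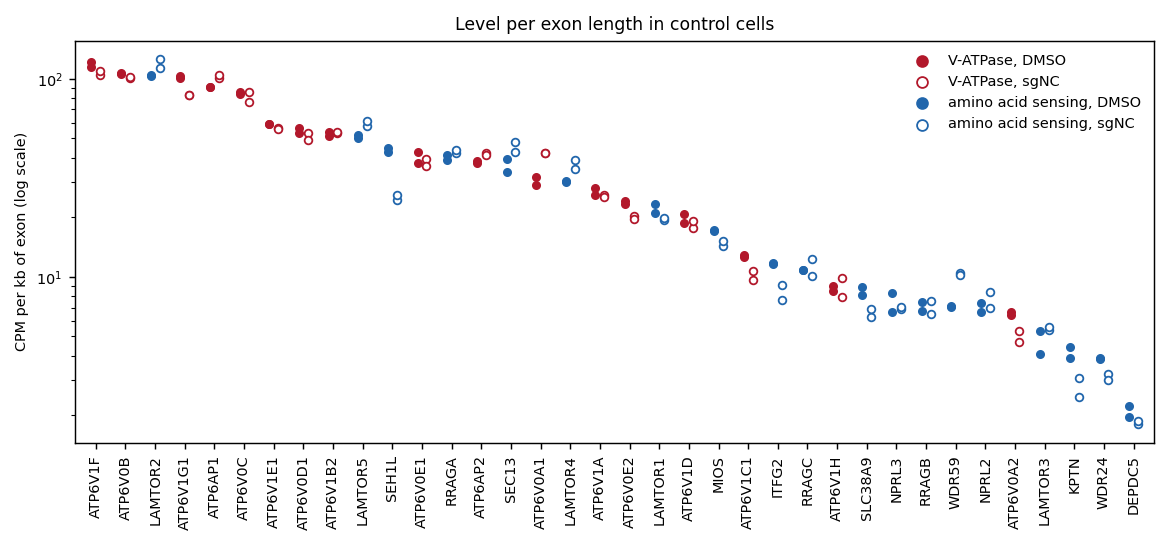
Level per kb of exon (CPM per kb, log axis) of the 36 genes in each of the 2 DMSO samples (filled) and the 2 sgNC samples (open), ordered by the DMSO mean, with V-ATPase genes in red and sensing genes in blue. V-ATPase genes fill most of the upper end, and DEPDC5 stands lowest at 1.83 and 2.09 CPM per kb (means with sgNC and DMSO).

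To ask how loss of PIKfyve, the kinase that makes the lysosomal lipid PI(3,5)P2, affects this machinery, sgPIKFYVE_1 was compared with sgNC. Most of the 17 listed V-ATPase genes rose: 13 were called higher (adjusted p under 0.05) and 0 lower, with a median log2 fold change of 0.46. Of 14 other V-ATPase paralogs and factors, part of the further list described below, 5 were called higher and 4 lower. Among all 13591 genes tested, 21.6% were called higher and 20.9% lower, with a median of -0.0042. In the sensing machinery, 6 of 19 genes rose and 1 fell, with a median of -0.02. Its share of higher calls (31.6%) lay closer to the background than that of the 17 V-ATPase genes (76.5%). The members were chosen with earlier results of these data known, so shares set beside the background, here and below, are descriptions only. The sensing count fell to 4 genes without sgNC replicate 1. In none of the comparisons did any of the 36 genes reach an absolute log2 fold change of 1.5, the cutoff that the study used. With quantile normalization the pump counts were 13 higher and 1 lower.

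Within the V1 sector, 7 of 8 subunits rose. ATP6V1C1, a stalk subunit that links V1 to V0, measured 60.2 and 54.4 CPM with sgNC and 93.2 and 92.1 CPM with sgPIKFYVE_1 (log2 fold change 0.69, SE 0.0723, adjusted p = 3.04e-07). ATP6V1A, the catalytic subunit that hydrolyzes ATP, measured 119 and 116 CPM with sgNC against 174 and 184 CPM (0.61, SE 0.0564, adjusted p = 5.82e-08). These are gains of 61.7% and 52.8% of the control mean. The groups did not overlap for any of the 8 V1 subunits, among them ATP6V1B2, which was not called. ATP6V1E1, of the peripheral stalk, went from 78.7 and 77.9 CPM to 121.8 and 120.0 CPM (0.62, SE 0.0619, adjusted p = 1.53e-07). ATP6V1D, of the central rotor, went from 32.6 and 35.1 CPM to 50.1 and 53.5 CPM (0.60, SE 0.0881, adjusted p = 1.94e-05). ATP6V1D shares 253 exon bases with EIF2S1 on the opposite strand, and whether the counting used strand is not stated. The remaining risers had smaller estimates. ATP6V1G1, a peripheral stalk subunit, went from 89.5 and 89.6 CPM to 128.1 and 125.5 CPM (0.50, adjusted p = 1.79e-06), ATP6V1H, a regulatory subunit, from 23.0 and 28.7 CPM to 30.2 and 34.8 CPM (0.32, adjusted p = 0.0317) and ATP6V1F from 82.7 and 86.7 CPM to 103.4 and 99.2 CPM (0.26, adjusted p = 0.00339). ATP6V1H lost its call without sgNC replicate 1 (adjusted p = 0.385) or without sgPIKFYVE_1 replicate 2 (adjusted p = 0.233). ATP6V1B2, the non-catalytic partner of ATP6V1A in the V1 head, did not pass the test, at 153.3 and 154.5 CPM with sgNC and 164 and 169 CPM with sgPIKFYVE_1 (0.11, SE 0.0538, adjusted p = 0.101).

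In the V0 sector, 5 of 7 subunits rose. ATP6V0E1, a small membrane subunit, gained 92.3%: its level was 63.8 and 58.7 CPM with sgNC and then 116.7 and 118.8 CPM with sgPIKFYVE_1 (0.93, SE 0.0676, adjusted p = 1.70e-09), the largest change in the pump. Its paralog ATP6V0E2 moved from 58.5 and 56.6 CPM to 87.0 and 80.4 CPM (0.53, SE 0.0723, adjusted p = 7.68e-06). ATP6V0D1, which couples the rotor to the membrane ring, went from 97.6 and 90.4 CPM to 154.9 and 144.4 CPM (0.66, SE 0.0628, adjusted p = 7.09e-08). All 3 of these genes had groups that did not overlap, as did ATP6V0A1, which was not called. The share of such genes over all genes tested was not computed. The proton-carrying ring subunits ATP6V0C and ATP6V0B rose from 114 and 128 CPM to 175 and 160.2 CPM (0.46, adjusted p = 9.88e-06) and from 230.5 and 234 CPM to 297 and 277 CPM (0.30, adjusted p = 6.81e-05). The a subunits, which hold the proton path and direct the pump to its compartment, did not pass the test. ATP6V0A1 measured 177 and 178 CPM with sgNC and 166 and 161 CPM with sgPIKFYVE_1 (-0.11, SE 0.0528, adjusted p = 0.0958), and ATP6V0A2 measured 34.5 and 39.0 CPM against 37.8 and 42.1 CPM (0.12, SE 0.0961, adjusted p = 0.34). The ATP6V0A2 groups overlapped. Of the accessory proteins, ATP6AP1, an assembly factor, rose from 322 and 332 CPM to 404 and 374 CPM (0.25, SE 0.0483, adjusted p = 0.000353), while ATP6AP2, the prorenin receptor, stood at 0.14 (adjusted p = 0.0808).

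Among the sensing genes, RRAGC, which encodes the GTPase RagC (GRCh38, chr1:38838198-38859823, minus strand), showed the largest change of all 36 genes. It measured 27.5 and 33.7 CPM with sgNC and 60.5 and 64.2 CPM with sgPIKFYVE_1 (log2 fold change 1.01, SE 0.0964, adjusted p = 8.37e-08), a gain of 104%. Its dimerization partners did not follow: RRAGA stood at 67.2 and 69.1 CPM against 62.9 and 65.5 CPM (-0.09, adjusted p = 0.365), and RRAGB at 14.0 and 16.2 CPM against 15.9 and 15.1 CPM (0.04, adjusted p = 0.841). In Ragulator, LAMTOR3 rose from 22.9 and 23.6 CPM to 34.0 and 40.9 CPM (0.66, SE 0.108, adjusted p = 6.81e-05). LAMTOR1, the lipid-anchored subunit that holds Ragulator on the lysosome, rose from 47.1 and 48.4 CPM to 65.0 and 68.9 CPM (0.48, SE 0.0766, adjusted p = 5.05e-05). LAMTOR5 passed the test narrowly, at 84.7 and 89.6 CPM against 93.0 and 104.3 CPM (0.17, adjusted p = 0.0497), and lost its call without either sgNC replicate or without sgPIKFYVE_1 replicate 2 (adjusted p = 0.0548 to 0.357). LAMTOR2 and LAMTOR4, at -0.04 and -0.19, did not pass it.

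The GATOR complexes moved little after the knockdown. In GATOR2, MIOS rose from 49.6 and 52.3 CPM to 62.7 and 65.7 CPM (0.33, SE 0.0766, adjusted p = 0.00187), and SEH1L, which also belongs to the nuclear pore, rose from 85.7 and 90.7 CPM to 103.4 and 99.8 CPM (0.20, SE 0.0642, adjusted p = 0.016). WDR59 was the only one of the 36 genes called lower, from 67.9 and 66.2 CPM to 59.4 and 57.3 CPM (-0.20, SE 0.073, adjusted p = 0.0354). The calls of WDR59 and SEH1L were not stable to leaving out a sample: WDR59 was lost without sgNC replicate 1, sgNC replicate 2 or sgPIKFYVE_1 replicate 2 (adjusted p = 0.107 to 0.193), and SEH1L without sgNC replicate 1 or sgPIKFYVE_1 replicate 1 (adjusted p = 0.0735 to 0.161). WDR24 (0.06) and SEC13 (-0.03), which also forms part of COPII coats, did not pass the test. None of the 3 GATOR1 genes, the 2 KICSTOR genes or SLC38A9 passed it with limma, with log2 fold changes from -0.27 for NPRL2 to 0.19 for DEPDC5. NPRL2 and NPRL3 each overlap a gene on the opposite strand (CYB561D2 by 397 exon bases, MPG by 51).

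**Figure D2:**
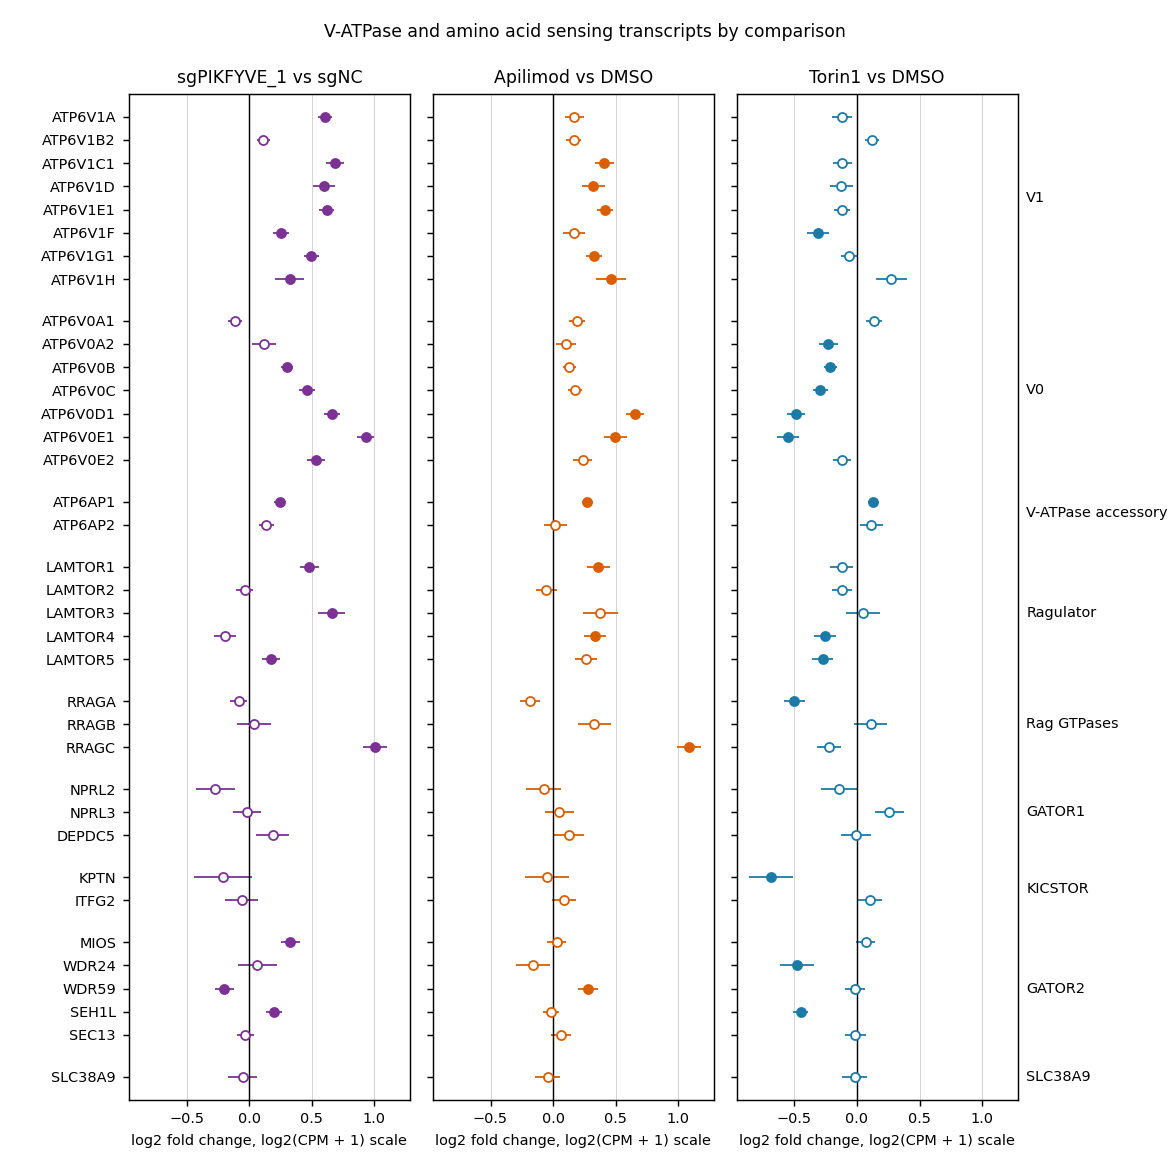
Log2 fold change on the log2(CPM + 1) scale of the 36 genes, by complex, for sgPIKFYVE_1 against sgNC, Apilimod against DMSO and Torin1 against DMSO. Points are estimates from 2 samples a group, bars are ± 1 SE, and filled points passed the test at an adjusted p under 0.05. V1 and V0 subunits lie mostly to the right with the knockdown (13 of 17 V-ATPase genes called higher) and with Apilimod (8 of 17), and V0 subunits mostly to the left with Torin1.

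Apilimod, compared with DMSO, gave a smaller set of calls in the same machinery. Of the 36 genes, 12 were called higher and 0 lower, where 5.75% of all 13520 genes tested were called higher and 2.79% lower. The pump accounted for 8 of the 12: 8 of 17 V-ATPase genes rose, and all 17 had an estimate above 0 in the values as deposited, with a median of 0.24 (0.21 with quantile normalization) against -0.0057 over all genes tested. Of the 19 sensing genes, 4 rose, with a median of 0.06. These counts rest on few libraries: without DMSO replicate 2 the pump count was 5, and the sensing count was 2, 1, 1 and 2 without DMSO replicate 1, DMSO replicate 2, Apilimod replicate 1 and Apilimod replicate 2. With quantile normalization 658 of the 1194 genes called over the whole table were higher, in place of 778 of 1155, and among the 36 genes 6 V-ATPase genes and 3 sensing genes were called higher and 0 lower.

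RRAGC again moved furthest, from 29.5 and 29.6 CPM with DMSO to 60.2 and 68.0 CPM with Apilimod (log2 fold change 1.09, SE 0.0962, adjusted p = 3.33e-06). ATP6V0D1 was next, from 97.6 and 103.6 CPM to 164.1 and 154.3 CPM (0.66, SE 0.0713, adjusted p = 2.73e-05). In both genes every Apilimod sample lay above every DMSO sample. This also held for every V0 subunit that was not called (ATP6V0A1, ATP6V0A2, ATP6V0B, ATP6V0C and ATP6V0E2), so it does not set the called genes apart. ATP6V0E1 rose from 61.2 and 69.6 CPM to 89.8 and 95.4 CPM (0.50, SE 0.0905, adjusted p = 0.00258), while ATP6V0E2, at 67.8 and 70.0 CPM against 85.4 and 77.6 CPM, did not pass the test (0.24, adjusted p = 0.0691). Of the a subunits, ATP6V0A1 measured 133.5 and 122.0 CPM with DMSO and 147 and 144 CPM with Apilimod (0.19, adjusted p = 0.0915), and ATP6V0A2 measured 48.9 and 47.3 CPM against 51.7 and 51.9 CPM (0.10, adjusted p = 0.516).

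Of the 8 V1 subunits, 5 rose with Apilimod. ATP6V1E1 measured 82.5 and 82.4 CPM with DMSO and 110.5 and 109.9 CPM with Apilimod (0.41, SE 0.064, adjusted p = 0.000706), and ATP6V1C1 measured 72.8 and 71.2 CPM against 92.6 and 99.3 CPM (0.41, SE 0.0747, adjusted p = 0.00268). ATP6V1G1 rose from 111 and 109 CPM to 134 and 142 CPM (0.33, adjusted p = 0.00607), ATP6V1H from 24.8 and 26.3 CPM to 37.0 and 34.2 CPM (0.46, adjusted p = 0.0307) and ATP6V1D from 38.4 and 34.3 CPM to 45.0 and 46.3 CPM (0.32, adjusted p = 0.041). The last 3 calls depended on single samples. ATP6V1H and ATP6V1D were lost without any of the 4 Apilimod or DMSO samples (adjusted p = 0.0689 to 0.18 and 0.0699 to 0.338), and ATP6V1G1 without DMSO replicate 2 or Apilimod replicate 2 (adjusted p = 0.0726 and 0.0591). The catalytic ATP6V1A stood at 0.17 (adjusted p = 0.227), and ATP6V1B2 and ATP6V1F did not pass the test either. ATP6AP1 rose by 0.27 (SE 0.0464, adjusted p = 0.0015), from 289.5 and 287.5 CPM to 357 and 342 CPM.

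The other sensing genes that rose with Apilimod were LAMTOR1, LAMTOR4 and WDR59. LAMTOR1 measured 56.8 and 51.5 CPM with DMSO and 75.4 and 64.6 CPM with Apilimod (0.36, SE 0.090, adjusted p = 0.0217), LAMTOR4 measured 37.3 and 36.8 CPM against 46.8 and 47.2 CPM (0.33, SE 0.0869, adjusted p = 0.0276), and WDR59 measured 45.5 and 46.0 CPM against 54.6 and 56.8 CPM (0.28, SE 0.0792, adjusted p = 0.0446). None of the 3 pairs of groups overlapped, but LAMTOR4 and WDR59 lost their calls without any of the 4 samples (adjusted p = 0.112 to 0.168 and 0.112 to 0.228), and LAMTOR1 without DMSO replicate 2 or Apilimod replicate 1 (adjusted p = 0.214 and 0.22). LAMTOR3 stood at 0.38 with a wide error (SE 0.139, adjusted p = 0.122). Its groups did not overlap either, nor did those of other sensing genes not called, such as LAMTOR2, LAMTOR5, RRAGA and RRAGB. RRAGA and RRAGB stood at -0.18 and 0.33, and no gene of GATOR1 or KICSTOR passed the test, nor did SLC38A9.

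The knockdown and Apilimod comparisons use separate controls in separately normalized tables. Of the 36 genes, 10 were called higher in both, which is 83.3% of the 12 genes called higher with Apilimod and 52.6% of the 19 called higher with the knockdown. Among the 13235 genes tested in both tables, 491 were called higher in both, which is 63.5% of the Apilimod calls and 17.0% of the knockdown calls. The 10 genes were ATP6V0D1 and ATP6V0E1 of V0, ATP6V1C1, ATP6V1D, ATP6V1E1, ATP6V1G1 and ATP6V1H of V1, the accessory ATP6AP1, LAMTOR1 and RRAGC. RRAGC and ATP6V0D1 had estimates of like size in the comparisons, at 1.01 and 1.09 for RRAGC and 0.66 in both for ATP6V0D1. ATP6V1A had an estimate of 0.61 with the knockdown and 0.17 with Apilimod, and ATP6V0E1 0.93 and 0.50. The difference between these estimates was not tested. WDR59 was called in opposite directions, lower with the knockdown and higher with Apilimod, and both calls were lost when single samples were left out. Among the genes called higher in both, only ATP6V0D1, ATP6V1E1 and RRAGC kept their Apilimod call under every alternative run other than the study's cutoff.

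**Figure D3:**
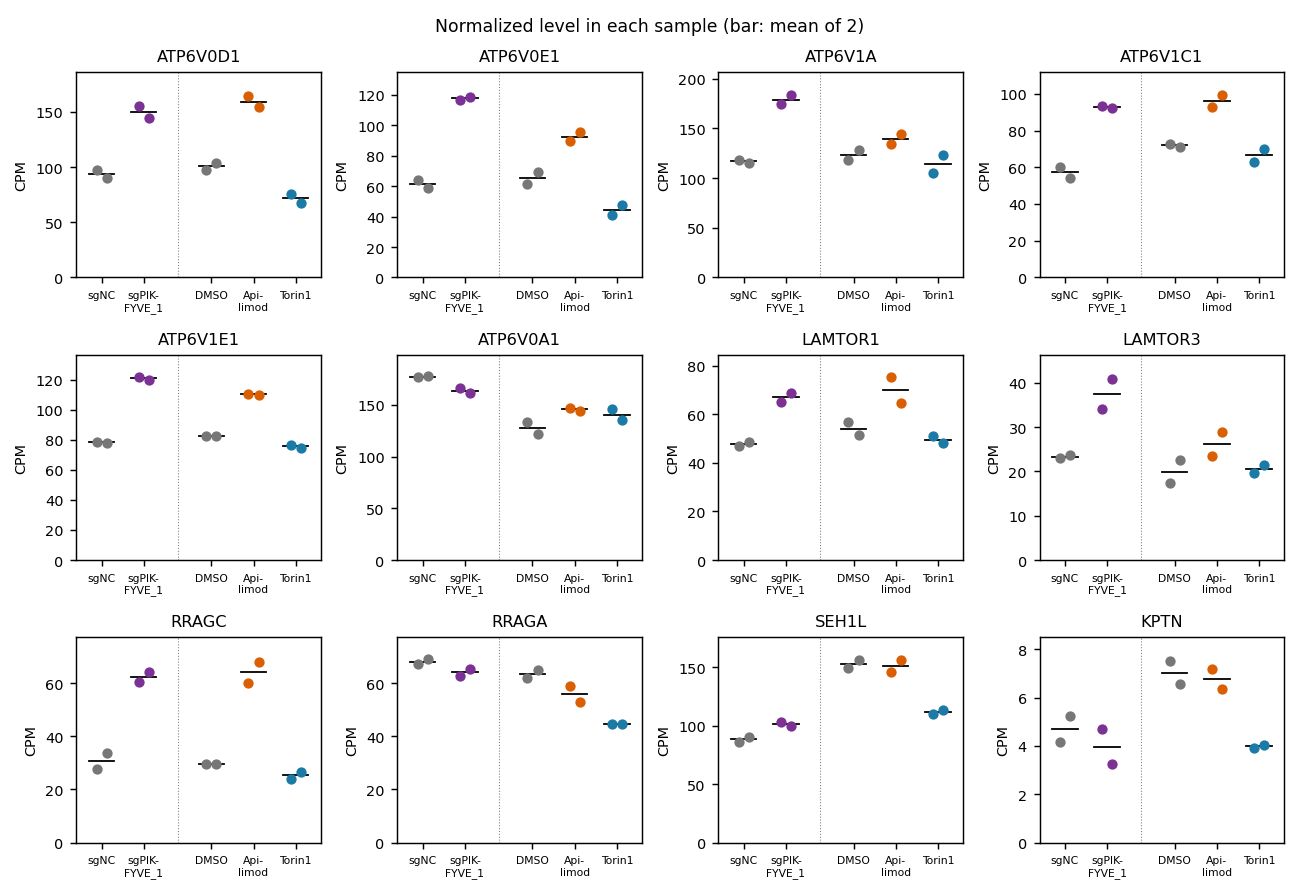
Normalized level (CPM, axes from 0) of 12 of the 36 genes in each sample of the 5 groups, with a bar at the mean of 2; the dotted line separates the knockdown table from the drug table, which were normalized separately. RRAGC, ATP6V0D1 and ATP6V0E1 are above their controls in both sgPIKFYVE_1 samples and both Apilimod samples, and ATP6V0D1, ATP6V0E1, RRAGA, SEH1L and KPTN are below DMSO in both Torin1 samples.

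With Torin1, the calls were mostly lower, at a share not far above the background. Of the 36 genes, 12 were called lower (33.3%) and 1 higher (2.78%) than with DMSO. Of all genes tested, 21.8% were called lower and 16.6% higher. For the pump, 6 of 17 genes fell and 1 rose with a median log2 fold change of -0.12. Quantile normalization gave 5 lower and 3 higher with a median of -0.06, and without DMSO replicate 2 the pump count was 4 in place of 7. For the sensing genes, 6 of 19 fell and 0 rose, also with a median of -0.12, against -0.012 over all genes tested. Without DMSO replicate 1, 2 sensing genes were called lower and 1 higher, without DMSO replicate 2, 3 were called lower, and with quantile normalization 4 were, with a median of -0.06. The shares called lower were 35.3% of the pump and 31.6% of the sensing genes, beside the background of 21.8%.

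The pump genes that fell with Torin1 were mostly of V0, with 5 of its 7 subunits called lower. ATP6V0E1 fell from 61.2 and 69.6 CPM with DMSO to 40.9 and 47.8 CPM with Torin1 (-0.55, SE 0.0905, adjusted p = 0.000311). ATP6V0D1 fell from 97.6 and 103.6 CPM to 75.5 and 67.6 CPM (-0.49, SE 0.0713, adjusted p = 0.000121). These are the only 2 of the 36 genes called higher with the knockdown and Apilimod and lower with Torin1. The ring subunits ATP6V0C and ATP6V0B fell from 129 and 125 CPM to 106 and 101 CPM (-0.29, SE 0.0597, adjusted p = 0.00154) and from 242 and 244 CPM to 213 and 206 CPM (-0.21, SE 0.0509, adjusted p = 0.00483). ATP6V0A2 fell from 48.9 and 47.3 CPM to 41.1 and 40.7 CPM (-0.23, SE 0.0794, adjusted p = 0.0358), while ATP6V0A1 stood at 133.5 and 122.0 CPM against 145.5 and 135.5 CPM (0.14, adjusted p = 0.108). Likewise ATP6V0E2, at 67.8 and 70.0 CPM against 61.8 and 64.9 CPM, did not pass the test (-0.12, adjusted p = 0.225).

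In V1, ATP6V1F was the only subunit called, from 89.98 and 95.5 CPM to 76.7 and 72.6 CPM (-0.31, SE 0.0861, adjusted p = 0.0118). The accessory ATP6AP1 rose slightly, from 289.5 and 287.5 CPM to 315 and 318 CPM (0.13, SE 0.0464, adjusted p = 0.0376). Both calls were sensitive to the samples used: ATP6V1F lost its call without DMSO replicate 2 or Torin1 replicate 2 (adjusted p = 0.0903 and 0.0584), and ATP6AP1, like ATP6V0A2, without any of the 4 Torin1 or DMSO samples (adjusted p = 0.0759 to 0.183 and 0.0857 to 0.187). The other 7 V1 subunits lay between -0.13 for ATP6V1D and 0.27 for ATP6V1H.

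The sensing genes called lower with Torin1 came from 4 complexes. SEH1L, of GATOR2 and the nuclear pore, fell from 149.6 and 155.9 CPM with DMSO to 110.2 and 113.1 CPM with Torin1 (-0.45, SE 0.0602, adjusted p = 5.90e-05). RRAGA, encoding RagA, fell from 62.1 and 65.2 CPM to 44.8 and 44.6 CPM (-0.50, SE 0.0816, adjusted p = 0.000299). KPTN, the kaptin subunit of KICSTOR, had the largest estimate, from 7.51 and 6.55 CPM to 3.91 and 4.05 CPM (-0.69, SE 0.174, adjusted p = 0.00691), a level with few reads behind it. Its call was lost without DMSO replicate 1 (-0.60, adjusted p = 0.0657). WDR24, of GATOR2, fell from 13.85 and 13.68 CPM to 10.25 and 8.97 CPM (-0.48, SE 0.136, adjusted p = 0.0133). In Ragulator, LAMTOR5 fell from 76.9 and 73.5 CPM to 57.6 and 66.7 CPM (-0.27, adjusted p = 0.022) and LAMTOR4 from 37.3 and 36.8 CPM to 30.0 and 31.9 CPM (-0.25, adjusted p = 0.0338). The last 3 genes lost their calls without either DMSO replicate, and also without Torin1 replicate 2 for WDR24 or Torin1 replicate 1 for LAMTOR4 and LAMTOR5 (adjusted p = 0.0585 to 0.0831 for WDR24, 0.0565 to 0.187 for LAMTOR5 and 0.118 to 0.148 for LAMTOR4). RRAGC stood at 24.04 and 26.5 CPM, below both DMSO samples, and did not pass the test (-0.22, SE 0.0962, adjusted p = 0.0867).

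**Figure D4:**
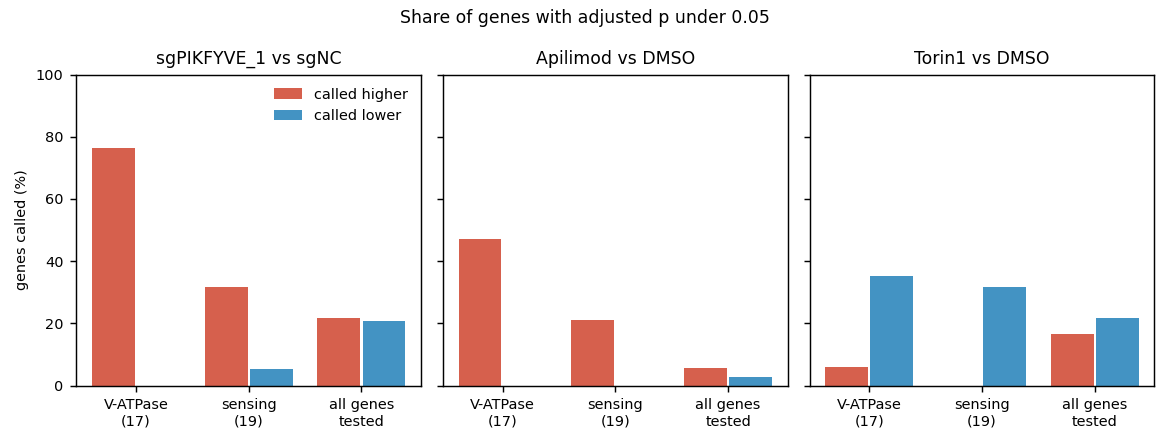
Share of genes called higher (red) or lower (blue) at an adjusted p under 0.05, in percent, among the 17 V-ATPase genes, the 19 sensing genes and all genes tested, for each comparison with a control. The share of V-ATPase genes called higher was 76.5% with the knockdown and 47.1% with Apilimod, beside 21.6% and 5.75% of all genes. The share called lower with Torin1 was 35.3% beside 21.8%. The members were chosen with earlier results of these data known.

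Since the drug comparisons share the DMSO samples, the drugs were also compared with each other. Torin1 minus Apilimod gave 21 of the 36 genes lower and 0 higher, where 26.2% of all genes tested were called lower and 20.5% higher. Of these 21, 13 were V-ATPase genes and 8 were sensing genes. The largest differences were those of RRAGC (-1.31, SE 0.0962, adjusted p = 1.13e-07), ATP6V0D1 (-1.14, SE 0.0713, adjusted p = 1.91e-08) and ATP6V0E1 (-1.05, SE 0.0905, adjusted p = 5.31e-07). KPTN (-0.64), LAMTOR4 (-0.59), LAMTOR5 (-0.54), ATP6V1E1 (-0.54) and ATP6V1C1 (-0.52) followed; of these 5, KPTN alone lost its call when a sample was left out (Apilimod replicate 1, adjusted p = 0.0633). The a subunit ATP6V0A1 did not differ detectably between the drugs (-0.05, SE 0.0641, adjusted p = 0.526), nor did ATP6V1B2 (-0.04, SE 0.0572, adjusted p = 0.563), whereas ATP6V0A2 was lower with Torin1 (-0.33, SE 0.0794, adjusted p = 0.00358).

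Over the 3 comparisons with a control, 25 of the 36 genes (69.4%) were called at least once and 11 were not called. This is near the background, since 62.1% of the genes tested in both tables were called at least once. The 11 were ATP6V1B2, ATP6V0A1 and ATP6AP2 of the pump, LAMTOR2, RRAGB, all of GATOR1 (NPRL2, NPRL3 and DEPDC5), ITFG2 of KICSTOR, SEC13 of GATOR2 and SLC38A9. NPRL3 and RRAGB are among the 9 genes with CACGTG in a promoter, and the other 7 were each called at least once. Since 69.4% of all 36 genes were called at least once, no link to the motif is read from this count, and none was tested.

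A further list of 32 genes of the same pathway, made of subunit paralogs, assembly factors and other sensors, held 26 genes that passed the filter on low values in both tables. With the knockdown, 10 of the 26 rose (38.5%, background 21.6%) and 5 fell (19.2%, background 20.9%). The 14 V-ATPase paralogs and factors among the 26 went both ways, with 5 called higher (35.7%) and 4 lower (28.6%). RRAGD, encoding RagD, rose from 38.3 and 41.4 CPM to 68.6 and 76.6 CPM (0.85, SE 0.0828, adjusted p = 1.12e-07). FLCN, the folliculin subunit that acts as a GTPase-activating protein for RagC and RagD, rose from 33.0 and 33.2 CPM to 53.7 and 52.4 CPM (0.66, SE 0.0853, adjusted p = 3.86e-06), and its partners FNIP2 and FNIP1 rose from 37.4 and 32.0 CPM to 59.5 and 60.1 CPM (0.77, adjusted p = 1.04e-06) and from 53.7 and 54.0 CPM to 73.4 and 80.8 CPM (0.51, adjusted p = 1.91e-05). All 4 of these genes had groups that did not overlap, as did genes of this list that were not called, such as NCOA7 and MEAK7. SESN3, of the sestrin family of GATOR2-binding proteins, rose from 26.06 and 31.35 CPM to 45.7 and 44.3 CPM (0.64, adjusted p = 4.33e-05), and the V-ATPase assembly factor TMEM199 from 27.25 and 25.92 CPM to 40.3 and 39.2 CPM (0.56, adjusted p = 9.96e-05). The tissue-restricted V1 paralog ATP6V1C2 fell, from 7.42 and 8.56 CPM to 4.603 and 3.99 CPM (-0.76, SE 0.199, adjusted p = 0.00432), opposite to ATP6V1C1, and lost its call without sgNC replicate 2 (-0.67, adjusted p = 0.051).

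With Apilimod, 4 of these 26 genes rose (15.4%, background 5.75%) and 0 fell. FLCN rose from 28.9 and 27.2 CPM with DMSO to 71.9 and 69.7 CPM with Apilimod (1.31, SE 0.0929, adjusted p = 3.25e-07), RRAGD from 29.8 and 33.2 CPM to 65.6 and 69.4 CPM (1.08, SE 0.0966, adjusted p = 3.86e-06) and FNIP1 from 47.5 and 50.1 CPM to 86.6 and 95.8 CPM (0.89, SE 0.0891, adjusted p = 1.21e-05). RRAGC and RRAGD, which can each pair with RagA or RagB, thus had estimates of like size, 1.09 and 1.08, in the same samples. With Torin1, 9 of the 26 fell (34.6%, background 21.8%) and 1 rose (3.85%, background 16.6%). SESN3 fell from 33.3 and 30.5 CPM to 13.9 and 16.2 CPM (-1.04, SE 0.111, adjusted p = 7.33e-06), the V-ATPase-binding NCOA7 fell from 32.6 and 38.0 CPM to 24.3 and 24.5 CPM (-0.51, adjusted p = 0.00134) and FNIP2 from 38.6 and 39.4 CPM to 31.1 and 23.8 CPM (-0.50, adjusted p = 0.00367). CASTOR2, of the arginine-sensing CASTOR family, fell from 7.29 and 7.19 CPM to 5.36 and 4.04 CPM (-0.54, adjusted p = 0.0311), a call lost without DMSO replicate 1, DMSO replicate 2 or Torin1 replicate 2 (adjusted p = 0.106 to 0.199). FNIP1 was the 1 gene that rose with Torin1 (0.33, adjusted p = 0.00933), and it lost its call without DMSO replicate 1 or Torin1 replicate 2 (adjusted p = 0.07 and 0.0989). Between the drugs, 11 of the 26 genes were lower (42.3%, background 26.2%) and 1 higher (3.85%, background 20.5%) with Torin1 than with Apilimod, led by FLCN (-1.32), SESN3 (-1.08), RRAGD (-0.87), FNIP2 (-0.84), the assembly factor CCDC115 (-0.67), NCOA7 (-0.58), FNIP1 (-0.55) and SESN1 (-0.55). A promoter was matched for 21 of the 32 listed genes, in 33 windows, of which 1 held CACGTG, that of FNIP1. RRAGD, TMEM199, RNASEK and CCDC115 were among the genes not matched, so their promoters were not searched.

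**Figure D5:**
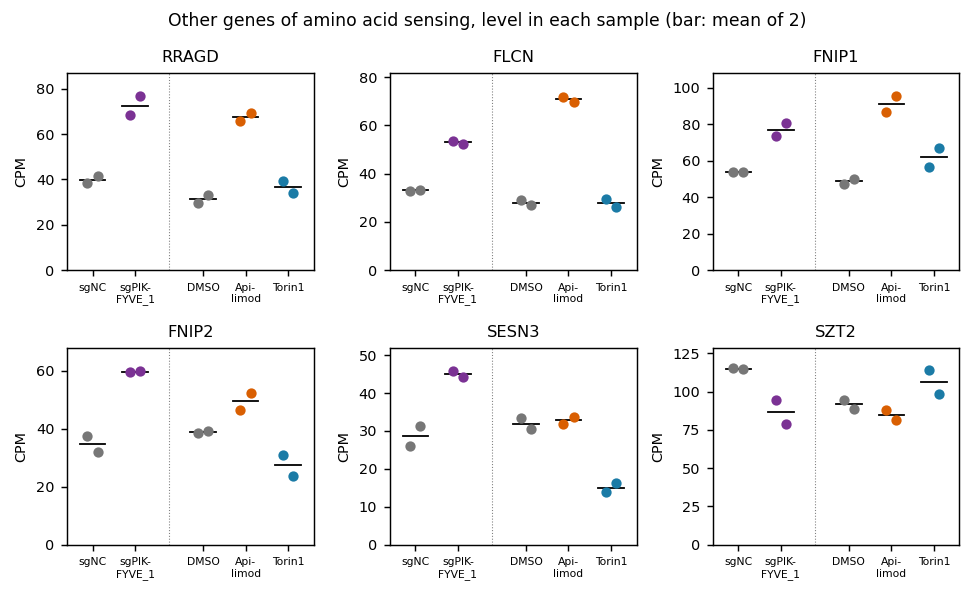
Normalized level (CPM, axes from 0) in each sample of 6 genes of the wider pathway list, with a bar at the mean of 2; the dotted line separates the separately normalized tables. RRAGD, FLCN and FNIP1 are above their controls in both sgPIKFYVE_1 and both Apilimod samples, and SESN3 is at 13.9 and 16.2 CPM with Torin1, below all other samples of its table.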

How the data were processed

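The 10 libraries were sequenced, trimmed with Trimmomatic and summed to genes by the authors, who normalized with TMM in edgeR and tested with DESeq2 (not rerun here; their count table was not used here). The submitters' processing notes name bcl2fastq 2.20, FastQC and the build hg38; the quantifier and annotation are not given in the sources used here. The labels describe depletion of ribosomal RNA and the methods of the study oligo(dT) selection. What the authors deposited is a signal in units of CPM, computed on TMM effective library sizes, in 2 tables normalized separately, with column sums of 972493 to 1024332. The design assumed plain CPM, and the same log-scale test was kept. Only 76.3% to 79.3% of low values were whole reads (within 0.05 of a read), too few to recover counts.

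Genes that averaged 1 CPM or more over a table were tested on log2(CPM + 1), which understates changes of low genes, with limma 3.58.1 in R 4.3.3 (lmFit, then eBayes with a trend, two-sided). P-values were adjusted by Benjamini-Hochberg over all genes tested, with a threshold of 0.05, and all 6 drug samples entered 1 fit. Replicates were compared by a chi-square of their estimated counts, and no pair was closer than sampling noise (median chi-square over the Poisson expectation 1.87 to 2.68). The labels do not say that replicates were separate cultures, so p-values measure the spread between these samples. Depth and the 3-read floor cover counting error only. With 2 samples a group, many genes that were not called also had groups that did not overlap. The share of such genes over all genes tested was not computed.

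Values per sample were given for called members with an absolute log2 fold change of at least 0.5, for up to 4 more called members per complex, and always for the paralog pairs ATP6V0A1/ATP6V0A2 and ATP6V0E1/ATP6V0E2; genes of the wider list were named when called with at least 0.5, and FNIP1 with Torin1 was named outside this rule after its value was seen. RRAGA, RRAGB, LAMTOR2 to LAMTOR5 and ATP6V1B2 were likewise given values where they did not meet it. The members and lists were chosen with earlier results of these data known. Gene positions and exon lengths were taken from GENCODE release 29 (GRCh38), and CPM was divided by exon kb to compare genes. Alternatives were a pseudocount of 0.1, no filter, quantile normalization, no variance trend, a replicate block, only the 2 groups compared, each sample left out, and the study's cutoff. Figures were drawn with matplotlib 3.10.9.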

Additional observations from a re-analysis of the deposited data

How the results depend on the processing

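The design has 2 samples a group, and 14 of the 20 members called with the knockdown, 3 of 12 with Apilimod, 5 of 13 with Torin1 and 16 of 21 between the drugs stayed called under every alternative run other than the study's cutoff, which left 0 members in each of the 7 counts. No called result changed direction; the median of the sensing genes with the knockdown, near 0, ranged from -0.04 to 0.06 when a sample was left out. With no variance trend, the sensing count was 4 in place of 7 with the knockdown and 1 in place of 4 with Apilimod, and the V-ATPase count was 2 in place of 8 with Apilimod and 3 in place of 7 with Torin1. With no filter on low values, which raised the number of genes tested, the Apilimod counts were 4 for V-ATPase genes and 1 for sensing genes. Over the whole table, calls with no variance trend numbered 3709 in place of 5772 with the knockdown and 466 in place of 1155 with Apilimod, and the Apilimod calls numbered 565 with no filter. The cause of these shifts was not tested.

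When 1 sample was left out, the V-ATPase count ranged over 12 to 13 with the knockdown, 5 to 8 with Apilimod and 4 to 7 with Torin1. The sensing count ranged over 4 to 6, 1 to 5 and 3 to 6, and the count between the drugs over 19 to 22. Leaving an arm with 1 sample assumes that this sample varies like the other groups. The whole-table Apilimod calls numbered 656, 597 and 689 without DMSO replicate 1, DMSO replicate 2 and Apilimod replicate 1. The PIKFYVE log2 fold change stayed between -3.08 and -2.89.

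The samples of different groups share only a replicate number: deviations of same-numbered samples correlated at 0.0370 in the knockdown table and 0.0426 to 0.104 in the drug table, over 2 numbers. With the replicate block, the Apilimod V-ATPase count was 14 in place of 8 and the whole-table Apilimod calls numbered 1756 in place of 1155, and all 107 gene calls examined kept their direction and side of the threshold.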
